A study of Mus musculus with 6 samples.

Results

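The genes described here carry the interleukin-6 signal in liver cells: the receptor chains Il6ra and Il6st, the Janus kinases Jak1 and Jak2, the transcription factor Stat3, its inhibitor Socs3, and the C/EBP transcription factors Cebpa, Cebpb and Cebpd. They are 9 of the 12393 genes that a probe set of the array named alone, and every probe set annotated to 1 of the 9 symbols and to no other was taken, 21 in all. Liver RNA came from 3 mice lacking chromogranin A (Chga), a prohormone stored in the granules of neuroendocrine cells, and from 3 wild-type mice. All 6 were males aged 12 weeks, and each gave 1 Affymetrix array. The labels call the first group a chromogranin A knockout strain of a published source and the second the wild-type mice of the same source. They name neither the genetic background, nor the part of the gene that was removed, nor feeding, handling or array batch, nor whether mice were littermates. P-values therefore measure the spread between these samples and nothing wider. The comparison asks whether the transcripts of this pathway differ in liver when Chga is absent.

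Interleukin-6 binds its receptor chain (Il6ra), and the pair then recruits gp130, the shared signalling chain encoded by Il6st. Janus kinases bound to gp130 phosphorylate STAT3, which enters the nucleus and switches on acute phase genes and its own inhibitor, Socs3. The C/EBP factors act beside STAT3 on hepatocyte promoters: C/EBP alpha maintains genes of the resting liver, while C/EBP beta and C/EBP delta are known for their part in the acute phase and in regeneration. Much of this control acts on protein, by phosphorylation and turnover, which transcript levels do not show.

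Each deposited value is the brightness of a probe set on a linear scale without a unit. A probe set was kept for testing if its mean over all 6 arrays lay in the upper 60% of the table, and 13576 probe sets were kept, standing for 8047 genes. The median intensity ran from 586 to 644 over the arrays, and no pair of arrays held the same values. Background was taken on each array as the 95th percentile of 27 dim bacterial control probe sets, between 151 and 322. The 322 was that of knockout replicate 2, with the next highest, 230, in wild-type replicate 1. On knockout replicate 2 the fewest probe sets, 64.4%, were above background, against 69.2% on wild-type replicate 1. The targeted gene checks nothing at its level: the only Chga probe set read 61.5, 44.5 and 231 in knockout and 167, 185 and 42.5 in wild type, and 1 array of each group was above background. Hepatocyte markers were bright, with albumin (Alb) at 178997, 210871 and 202527 in knockout and 170787, 161495 and 187904 in wild type.

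None of the 9 genes passed the test between knockout and wild-type liver. Changes are given as knockout minus wild type on log2(intensity + 16), a scale that understates changes of dim probe sets, and were tested with limma over all kept probe sets with Benjamini-Hochberg adjustment at 0.05. Of the 21 member probe sets 19 were kept, and 0 of the 19 passed, against 0.376% of all kept probe sets. At an unadjusted p under 0.05 there were 2 of the 19, both of Stat3, against 9.97% of all kept probe sets. Stat3 came closest, with both of its kept probe sets lower in every knockout array than in any wild-type array. By its brightest probe set, 2 of the 9 genes were above and 7 below wild type (3 above with each array centred on its median), with a median change of -0.17 beside -0.015 for all 8047 genes. Groups did not overlap in 4 kept member probe sets that were lower in knockout and in 1 that was higher; among all kept probe sets 8.12% were lower without overlap and 7.44% higher. The other 16 of the 21 overlapped, the 2 dim ones among them. In 4 of the 7 genes with more than 1 kept probe set, the probe sets of the gene lay on both sides of wild type.

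**Figure D1:**
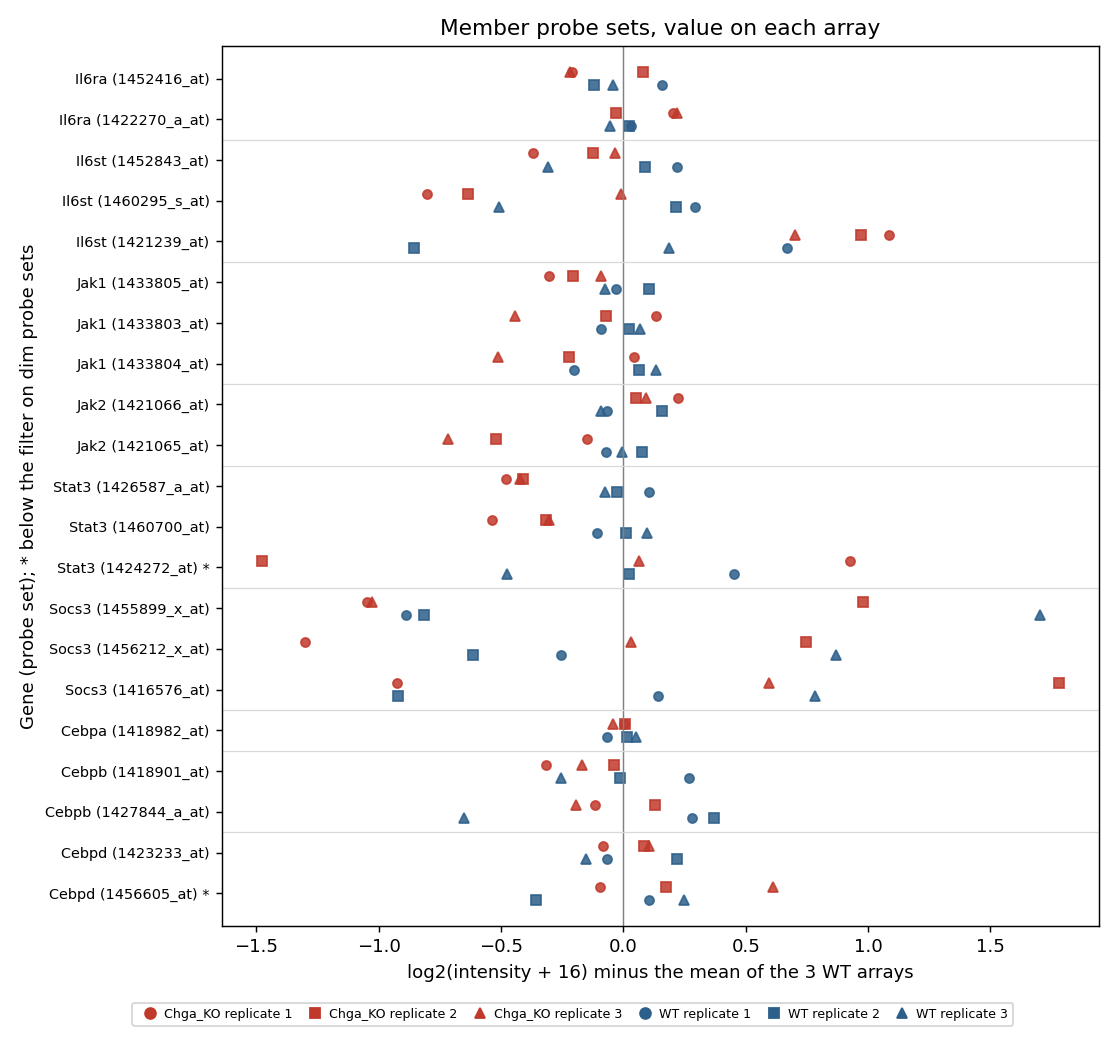
Each point is 1 array; the x axis gives log2(intensity + 16) minus the mean of the 3 wild-type arrays, and each row is a probe set of a member gene, with knockout in red above wild type in blue. The 3 knockout points of the upper 2 Stat3 rows lie left of all wild-type points, and the Socs3 rows spread widely in both groups.

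**Figure D2:**
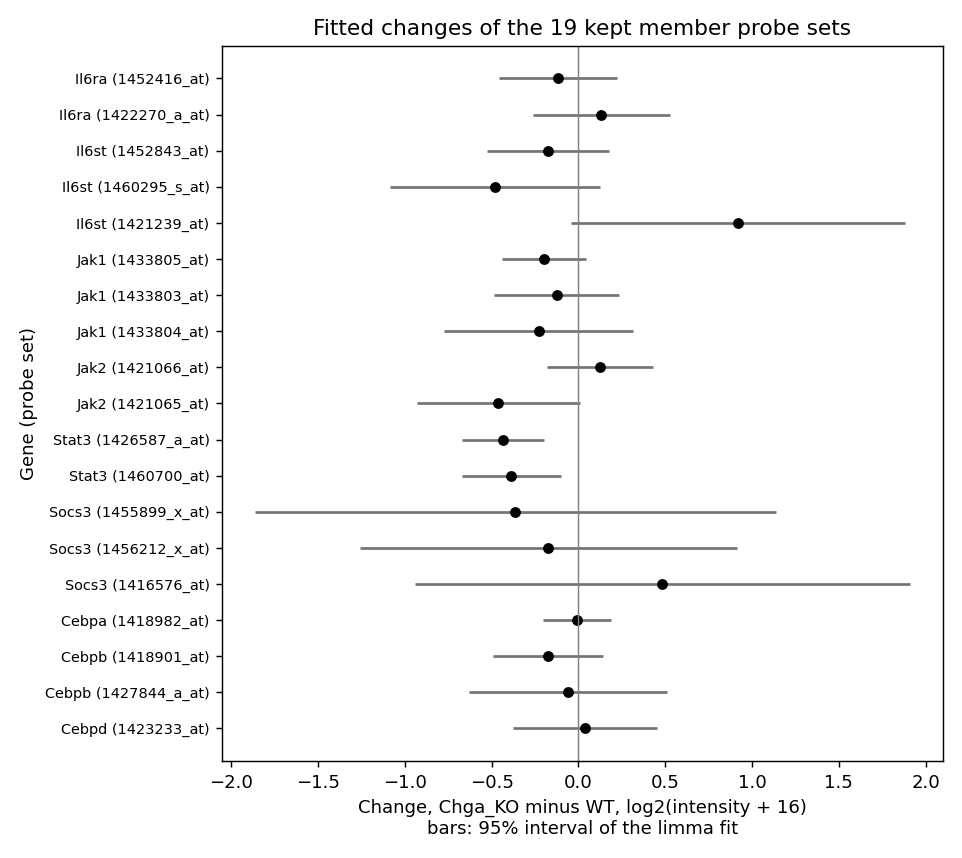
Points give the fitted change (knockout minus wild type, log2 scale) of the 19 kept member probe sets and bars its 95% interval. Only the bars of the 2 Stat3 probe sets lie wholly below 0 before adjustment for the number of tests; the bar of Cebpa is the narrowest, from -0.20 to 0.18.

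The promoter sequences of Socs3 and Stat3 are shown because Socs3 is the inhibitor that STAT3 switches on and Stat3 is the member nearest to the threshold. Both are the 250 bases before the RefSeq start site of assembly GRCm38.p6 on the gene's strand, 5′ to 3′, with the STAT motif TTCNNNGAA in capitals; Socs3 is at chr11:117969367-117969616 and Stat3 at chr11:100939541-100939790, both on the minus strand.
Socs3: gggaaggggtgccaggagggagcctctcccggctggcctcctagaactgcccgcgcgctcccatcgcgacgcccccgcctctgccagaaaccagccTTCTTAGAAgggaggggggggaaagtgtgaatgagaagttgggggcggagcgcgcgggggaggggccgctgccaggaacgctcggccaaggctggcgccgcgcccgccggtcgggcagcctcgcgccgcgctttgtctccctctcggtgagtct
Stat3: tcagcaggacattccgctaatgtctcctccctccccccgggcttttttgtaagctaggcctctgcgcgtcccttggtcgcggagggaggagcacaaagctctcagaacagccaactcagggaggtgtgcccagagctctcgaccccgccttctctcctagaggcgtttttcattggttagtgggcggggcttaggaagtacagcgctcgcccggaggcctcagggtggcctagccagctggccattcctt
The RefSeq table held windows for 8 of the 9 members, all but Cebpd. The motif TTCNNNGAA, which reads the same on both strands, was found once, in Socs3, starting 154 bases before the start site. The C/EBP motif TTGCNNAA, searched on both strands, was found in none of the 8 windows from 250 bases before to 50 after the start. Over all 32851 windows of that length, 8.3% held the STAT motif and 10.8% the C/EBP motif. A match is only a match of letters, and a window without one may be bound elsewhere.

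Il6ra encodes the chain that binds interleukin-6. Its brighter probe set, 1452416_at, read 1932, 2365 and 1920.3 in knockout and 2499, 2058 and 2172 in wild type. The groups overlapped, and the change was -0.12 ± 0.15 (SE, n = 3 per group, adjusted p = 0.844). The second, 1422270_a_at, read 1213, 1030.4 and 1228 in knockout and 1074, 1069.6 and 1012 in wild type. Here the wild-type arrays lay close together and knockout replicates 1 and 3 above them, for a change of 0.13 ± 0.18 (adjusted p = 0.846). The probe sets thus pointed to opposite sides of wild type, and neither direction was distinguishable from the spread. The 95% intervals of the change ran from -0.46 to 0.22 and from -0.26 to 0.53, and both include 0.

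Il6st encodes gp130, which passes on the signal of the whole cytokine family. Its brightest probe set, 1452843_at, read 3586, 4255 and 4525 in knockout and 5392, 4924 and 3744 in wild type, with overlapping groups and a change of -0.17 ± 0.16 (SE, n = 3 per group, adjusted p = 0.761). The 1460295_s_at probe set followed it over the 6 arrays, with a Pearson's r of 0.92, and read 752, 846 and 1316 in knockout and 1623, 1539 and 927 in wild type. In both, wild-type replicate 3 lay among the knockout arrays and apart from the other wild-type arrays. The change of 1460295_s_at was -0.48 ± 0.27 (adjusted p = 0.606). The dimmest, 1421239_at, went the other way, at 597, 552 and 455 in knockout and 444, 144 and 314 in wild type. All 3 of its knockout values exceeded the wild-type values, of which 2 were above background, and the change was 0.92 ± 0.43 (adjusted p = 0.524). Correlations over 6 arrays are given here and below as descriptions.

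Jak1 is the kinase that gp130 signalling depends on most. Its brightest probe set, 1433805_at, read 6861, 7351 and 7960.3 in knockout and 8307, 9120.1 and 8037 in wild type. Every knockout value was below every wild-type value, by a small margin between knockout replicate 3 and wild-type replicate 3. The change was -0.20 ± 0.11 (SE, n = 3 per group, adjusted p = 0.589). The 1433803_at and 1433804_at probe sets followed each other (r = 0.94) but not the first (r = -0.17 and 0.066). For 1433803_at the values were 3361, 2918 and 2249.6 in knockout and 2872, 3115 and 3209.8 in wild type. Its groups overlapped and the change was -0.13 ± 0.16 (adjusted p = 0.835), with -0.23 ± 0.25 (adjusted p = 0.803) for 1433804_at. All 3 Jak1 probe sets were below wild type on average, only the brightest of them without overlap, and none passed the test.

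Jak2, which also serves the growth hormone and several cytokine receptors, had a pair of probe sets that disagreed. The brighter, 1421066_at, read 2918, 2585 and 2663 in knockout and 2382, 2788 and 2342 in wild type, overlapping, with a change of 0.12 ± 0.14 (SE, n = 3 per group, adjusted p = 0.818). The dimmer, 1421065_at, read 998, 767 and 668 in knockout and 1053, 1171 and 1104 in wild type. Each of its knockout values was below each wild-type value, with knockout replicate 1 close to wild-type replicate 1. Its change was -0.46 ± 0.21 (adjusted p = 0.507). No level of Jak2 in knockout relative to wild type can be given from probe sets that point opposite ways.

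Stat3 is the transcription factor through which interleukin-6 reaches the acute phase genes. Its brightest probe set, 1426587_a_at, read 5260.4, 5519.9 and 5477 in knockout and 7879.6, 7198 and 6958 in wild type. The knockout arrays lay within a narrow band, and the lowest wild-type array was clearly above the highest knockout array. The mean was 5419 ± 139 in knockout against 7345 ± 478 in wild type (SD, n = 3). The change was -0.44 ± 0.11 (SE, n = 3 per group, adjusted p = 0.141), and its adjusted p-value lay between 0.107 and 0.539 over the alternative settings tried, all with Stat3 lower in knockout. The second probe set, 1460700_at, read 2884, 3359 and 3388 in knockout and 3885, 4224 and 4479.6 in wild type. It repeated the separation of the groups, at -0.39 ± 0.13 (adjusted p = 0.326), and followed the first over the 6 arrays (r = 0.83), a value that includes the difference between the groups. The third, 1424272_at, was too dim to be kept; it read 479.98, 77.9 and 257 in knockout and 342, 249 and 172 in wild type, and its groups overlapped. In 95% intervals the change was -0.67 to -0.20 for the first and -0.67 to -0.10 for the second, before any adjustment for the number of probe sets tested. In whole liver, fewer cells of a type and less RNA per cell cannot be told apart.

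**Figure D3:**
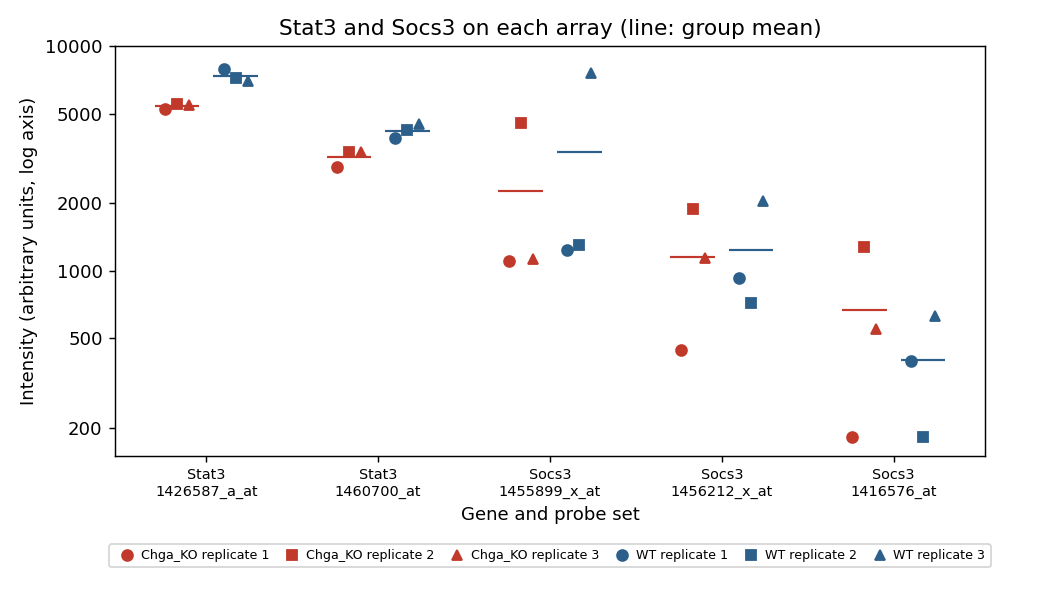
Intensity on each array (log axis) for the kept probe sets of Stat3 and Socs3, knockout in red, wild type in blue, with a line at each group mean. The Stat3 groups are separate in both probe sets, while in each Socs3 probe set knockout replicate 2 and wild-type replicate 3 are the highest arrays of their groups.

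Markers of other liver cells stood beside this as follows. Of 14 Kupffer cell and macrophage markers 12 were kept and 11 of them were below wild type, with a median change of -0.26 and a summed intensity of 20933 to 33177 in knockout and 26657 to 34852 in wild type. Csf1r and Cd5l were above background on every array, while Marco, not kept, was below background on every array. Of 11 stellate cell and matrix markers 9 were kept and 8 were below wild type, with a median of -0.24 and a sum of 24873 to 31143 in knockout and 29083 to 37517 in wild type. The 9 kept endothelial markers had a median of -0.035, which turned to 0.012 with quantile normalization and 0.0068 with median centring, and a sum of 23118 to 27137 in knockout and 23125 to 24582 in wild type. The 10 kept hepatocyte markers were all above wild type, but 4 of the 10 with quantile normalization, with a median of 0.13 that this turned to -0.018, and a sum of 1403998 to 1594704 in knockout and 1304697 to 1449608 in wild type. No marker of these lists passed the adjusted threshold, and the sums overlapped between the groups in each of the 4. By gene, 3 of 9 kept stellate cell and matrix markers and 2 of 12 Kupffer cell and macrophage markers were lower without overlap. Among all genes 7.84% were. Of the hepatocyte markers 1 of 10 was higher without overlap, beside 7.77% of all genes, and 0 of 9 endothelial markers separated. An unadjusted limma p under 0.05 was seen in 3 of the 9 stellate cell and matrix markers, against 10.3% of all genes. Of the neutrophil, lymphocyte and pancreas markers 3 of 10, 1 of 12 and 2 of 8 were kept, and of the cholangiocyte markers 0 of 6. The kept pancreas markers, Cela1 and Cel, were above background on every array and summed to 5041 to 8455 in knockout and 9649 to 10187 in wild type. The sum did not overlap, but this came from Cela1, at 7968, 6765 and 4663 in knockout and 9489, 9132 and 9650 in wild type. Cel overlapped, at 487, 386 and 378 in knockout and 397, 517 and 537 in wild type. Ctrb1 and Cpa1 were below background on every array. The part of these cells in the values of Stat3 was not tested.

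The genes whose values over the 6 arrays were most like those of Stat3 1426587_a_at, by Pearson's r among 12473 kept probe sets of other single genes, were Gch1 (r = 0.995), H2-K1 (0.995), Hmgn1 (0.992), Dnph1 (0.989) and Plk3 (0.988). With 6 arrays, 167 probe sets had an r above 0.9. The groups of this Stat3 probe set did not overlap, so genes chosen by such an r were bound to be lower in knockout. The amounts differed widely. Gch1, the first enzyme of tetrahydrobiopterin synthesis, changed by -0.26 ± 0.096 (adjusted p = 0.401) and did not pass. The class I histocompatibility gene H2-K1 fell, by the probe set 1427746_x_at, with a change of -2.11 ± 0.20 (adjusted p = 0.000818), while its 4 kept probe sets ranged from -2.11 to 0.46. Of these 4 probe sets 2 passed. Hmgn1, Dnph1 and Plk3 did not pass (adjusted p = 0.631, 0.116 and 0.0787).

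Socs3 encodes the inhibitor that STAT3 induces and that shuts the receptor down, and its promoter is the one that held the STAT letters. Socs3 varied more between arrays of a group than between the groups. Its brightest probe set, 1455899_x_at, read 1109.9, 4561 and 1126 in knockout and 1240.2, 1305 and 7544 in wild type. Knockout replicate 2 and wild-type replicate 3 were high and the other 4 arrays lay close together. The highest array was 4.11 times the lowest in knockout and 6.08 times in wild type. The change was -0.36 ± 0.68 (SE, n = 3 per group, adjusted p = 0.896), and it turned to 0.49 without wild-type replicate 3 and went to -1.03 without knockout replicate 2. The 1456212_x_at probe set read 442, 1881 and 1138 in knockout and 931, 722 and 2049 in wild type, again highest in the same arrays, with a change of -0.17 ± 0.49 (adjusted p = 0.942). The 1416576_at probe set read 181, 1270.4 and 551 in knockout and 397, 182 and 629 in wild type, highest in knockout replicate 2, with a change of 0.48 ± 0.64 (adjusted p = 0.844). The suffix x marks probe sets in which some probes can bind other transcripts. The 3 probe sets correlated with r between 0.68 and 0.90 over the 6 arrays. The 95% interval of the brightest ran from -1.86 to 1.14, which spans more than a 2-fold change in each direction.

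Cebpa, the factor of the resting hepatocyte, had the narrowest interval of the 9 genes. Its only probe set, 1418982_at, read 17784, 17839 and 17223 in knockout and 16936, 17916 and 18369 in wild type. The groups interleaved, and the highest array was 1.04 times the lowest in knockout and 1.08 times in wild type. The change was -0.0096 ± 0.088 (SE, n = 3 per group, adjusted p = 0.986), with a 95% interval from -0.20 to 0.18. Its sign turned with median centring and with arrays left out.

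Cebpb encodes C/EBP beta, whose activity rises in the acute phase. Its brighter probe set, 1418901_at, read 6724, 8156 and 7445 in knockout and 10089, 8297 and 7027 in wild type. The groups overlapped, with wild-type replicate 1 highest and knockout replicate 1 lowest. The change was -0.18 ± 0.14 (SE, n = 3 per group, adjusted p = 0.728). The second, 1427844_a_at, read 1376, 1630.4 and 1303 in knockout and 1816, 1929.8 and 943 in wild type, with wild-type replicate 3 the lowest of all arrays and a change of -0.059 ± 0.26 (adjusted p = 0.962). Cebpd encodes C/EBP delta, a gene that STAT3 is known to induce. Its kept probe set, 1423233_at, read 1019, 1146 and 1162 in knockout and 1031, 1258 and 969.97 in wild type, interleaved, with a change of 0.036 ± 0.19 (SE, n = 3 per group, adjusted p = 0.971). The other, 1456605_at, fell below the filter and read 289, 353 and 483 in knockout and 335, 239 and 372 in wild type, also overlapping.

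The balance of Cebpb to Cebpa was compared within each array, where a common scaling factor nearly cancels. The log2 value of Cebpb minus that of Cebpa, each by its brightest probe set, was -1.40, -1.13 and -1.21 in knockout and -0.75, -1.11 and -1.38 in wild type. The absolute size has no meaning across probe sets, and only the difference between groups is read. That difference was -0.17 (two-sided exact permutation test, p = 0.4, n = 3 per group, smallest p possible 0.1), within the spread of the wild-type arrays. Leaving out 1 array moved it most without wild-type replicate 1, to 0.0012, and without wild-type replicate 3, to -0.32 (exact p = 0.1, the smallest possible with 3 and 2 arrays), and it was -0.088 without knockout replicate 1.

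Other genes of the pathway were taken from lists by role, with the brightest kept probe set standing for a gene. Of 78 such genes kept, 1 passed the adjusted threshold, against 0.423% of all 8047 genes. At an unadjusted p under 0.05 there were 12 of them, against 10.3% of all genes. Of the cytokines that use gp130, 2 of 9 were kept, Ctf1 at 0.46 ± 0.26 and Clcf1 at -0.098 ± 0.38. Il6 itself was dim and was not kept, reading 61.1, 188 and 322 in knockout and 40.8, 106 and 131 in wild type, with 1 of the 6 arrays above background. Of the other receptor chains, 3 of 6 were kept and 0 passed. Lifr, the leukaemia inhibitory factor receptor, was at -0.033 ± 0.16, the interleukin-27 receptor Il27ra at 0.62 ± 0.46 and the oncostatin M receptor Osmr at 0.024 ± 0.38. Of the other Janus kinases and STATs 5 of 8 were kept, all 5 below wild type, or 4 with median centring, with 0 passing and a median of -0.11; Stat6 was at -0.11 ± 0.16, Tyk2 at -0.04 ± 0.25, and the growth hormone-activated Stat5b and Stat5a at -0.38 ± 0.22 and -0.53 ± 0.40.

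Inhibitors and phosphatases of the pathway showed no common direction. Of 15, 14 were kept, 9 above and 5 below wild type, with 0 passing and a median of 0.044. The phosphatase Ptpn11 (SHP2), which docks on gp130 at the site SOCS3 uses, read 4448, 4486 and 4418 in knockout and 3225, 4029 and 3798 in wild type; its knockout values lay close together above all wild-type values, at 0.28 ± 0.13, adjusted p = 0.502. Ptpn2 was at 0.19 ± 0.14, Ptpn1 at 0.04 ± 0.15 and the STAT5-induced inhibitor Cish at 0.29 ± 0.47. Of the 6 kept adaptors that couple gp130 to MAP kinases, 4 were below wild type and 0 passed. Gab1 was at -0.41 ± 0.17, Sos2 at -0.27 ± 0.15, Grb2 at 0.17 ± 0.16 and Shc1 at -0.21 ± 0.16. Among the other C/EBP genes Cebpg was at 0.0046 ± 0.17 and the stress-induced Ddit3 at 0.45 ± 0.27. Of the genes that control the turnover of C/EBP alpha, the ubiquitin ligase Cop1 was at 0.085 ± 0.13, its partner Trib1 at -0.15 ± 0.20 and Trib3 at -0.45 ± 0.27. None of these 5 passed.

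The downstream genes gave 1 call. Of 15 acute-response genes known to be induced by interleukin-6 through STAT3, 13 were kept, 7 above and 6 below wild type, with 0 passing and a median of 0.075. The brightest were the iron hormone Hamp at 0.075 ± 0.12, Lrg1 at -0.59 ± 0.22, the survival factor Mcl1 at -0.13 ± 0.10 and the metalloreductase Steap4 at -0.19 ± 0.12. Lrg1, a secreted glycoprotein, read 9663, 15735 and 11221 in knockout and 25344, 13552 and 17078 in wild type, with overlapping groups. Groups did not overlap in 3 of the 13, where 7.77% of all genes were higher without overlap. The 3 are picked out here after their values were seen, and all are above wild type: Nnmt (1.19 ± 0.24, adjusted p = 0.0729), Bcl3 (0.59 ± 0.20, adjusted p = 0.336) and Fos (0.79 ± 0.32, adjusted p = 0.449). Nnmt read 4739.8, 4088 and 5543 in knockout and 2986, 1364 and 2173 in wild type.

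Of the acute phase plasma protein genes Apcs alone passed. This serum amyloid P gene read 17198, 20015 and 16825 in knockout and 56237, 43068 and 46256 in wild type, with no overlap. It fell with a change of -1.42 ± 0.12 (adjusted p = 0.000746). Of the 23 listed 18 were kept, 12 above and 6 below wild type with a median of 0.035, but 6 above and 12 below with quantile normalization, at a median of -0.068. The fibrinogen chains Fgb, Fgg and Fga were at 0.045 ± 0.097, 0.066 ± 0.096 and 0.17 ± 0.099, and hemopexin (Hpx) at 0.0088 ± 0.11. Of 12 hepatocyte genes under C/EBP control all 12 were kept, 7 above and 5 below, with 0 passing and a median of 0.12, which quantile normalization turned to -0.021. Groups did not overlap in 2 of the 12 that were higher and 2 that were lower. Among all genes 7.77% were higher and 7.84% lower without overlap. Albumin was at 0.19 ± 0.089, transthyretin (Ttr) at 0.14 ± 0.079, Adh1 at 0.14 ± 0.09 and the urea cycle enzyme Arg1 at 0.22 ± 0.085. Albumin, Ttr, Tat and Cps1 are also among the hepatocyte markers, so the lists are not independent.

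**Figure D4:**
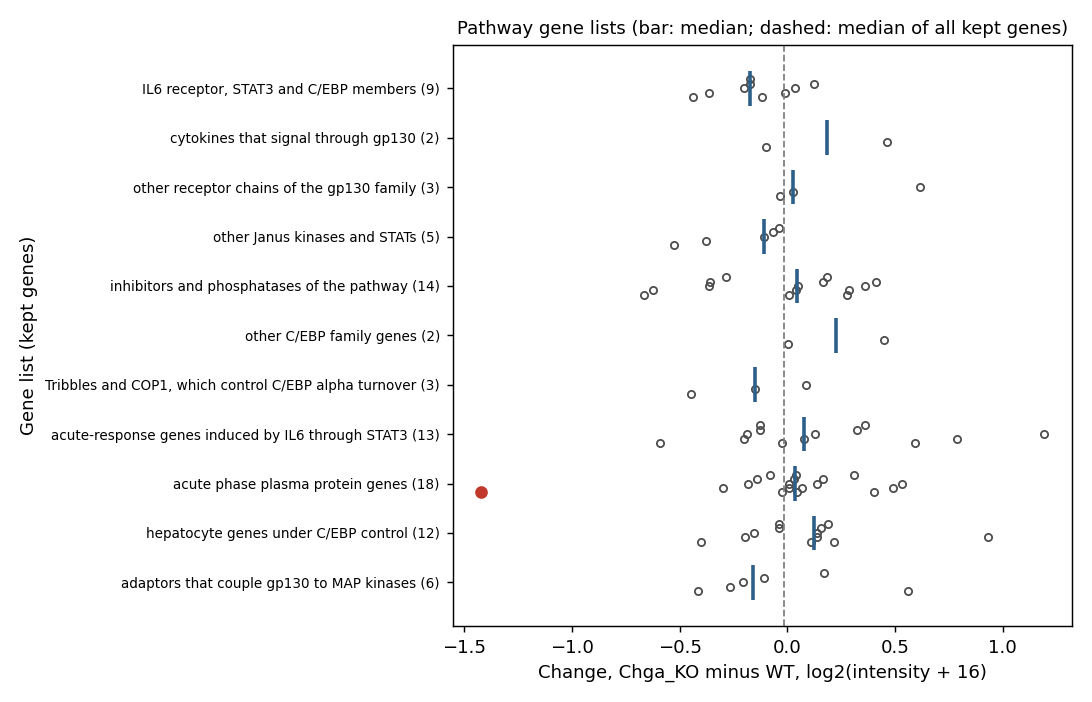
Each circle is a kept gene by its brightest probe set, placed by its change (knockout minus wild type, log2 scale); blue bars are list medians and the dashed line is the median of all kept genes, at -0.015. The filled red point is Apcs, the single gene past the adjusted threshold, and the list medians lie between -0.17 and 0.23.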

How the data were processed

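GCOS 1.2, the Affymetrix operating software, is named in the submitters' processing notes. The authors' deposited values are linear intensities per probe set, scaled between arrays by a rule not given in the sources used here; genome build and scanner files were not used. Of 22690 probe sets 64 controls were left out. Genes came from the platform annotation, with symbols updated through RefSeq (GRCm38.p6); probe sets of several genes named none. Log2(intensity + 16) was fitted over all 6 arrays with limma 3.58.1 in R 4.3.3 (lmFit, eBayes with intensity trend, no covariate) on the upper 60% by mean, with Benjamini-Hochberg adjustment; the fit was tested on simulated data. Alternatives were other pseudocounts, quantile normalization, median centring, other filters, no trend, the replicate number as a block, averaged probe sets and each array left out. Errors are SEs of the fit, or SDs over 3 arrays. The number of arrays limits the precision. Named were all members, list genes past the threshold, up to 4 of the brightest genes of each list, and the 5 genes most like the member with the smallest p; others are marked. Members and lists were chosen with earlier results of these data known.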

Additional observations from a re-analysis of the deposited data

How the results depend on the processing

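No member passed under any of the 17 alternatives, 1 of which, leaving out knockout replicate 2 and wild-type replicate 3 together, was chosen after seeing the data. Stat3, Jak1 and Cebpb stayed below wild type throughout. Stat3 lay between -0.49 and -0.38. The count of all probe sets passing, 51, was 82 with a pseudocount 16 times as large, 7 without the intensity trend, 27 with the replicate number as a block, 32 when the kept probe sets of a gene were averaged (fewer rows tested), 18 without those 2 arrays, and 21 to 48 with 1 array left out, lowest without wild-type replicate 3 (21) or 1 (23). Averaging probe sets turned Il6ra to 0.0083, Il6st to 0.088 and Jak2 to -0.17. Median centring turned Cebpa to 0.032, and leaving out both arrays turned Cebpa to 0.0068 and Cebpd to -0.065. With 1 array left out, Cebpa ran from -0.043 to 0.016, Cebpd from -0.04 to 0.14, Socs3 from -1.03 to 0.49, and the Cebpb to Cebpa difference from -0.32 to 0.0012. The groups share replicate numbers, but same-numbered arrays correlated at -0.065 to -0.059 in their deviations from the group means and 0 of 3 knockout arrays correlated best with their own number, so the block pairs by number only; it changed no member's call. The cause of these shifts was not tested.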

Other observations

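Socs3 shared its high arrays with a small set of genes, picked out here after their values were seen and given as a description. Among the 13576 kept probe sets, 4 read in both knockout replicate 2 and wild-type replicate 3 at least 2 times as high as in the highest of the other 4 arrays: those of Gadd45g, Socs3 (1455899_x_at), Phlda1 and Myc. Gadd45g, a growth arrest and stress gene, read 741, 2849 and 595 in knockout and 443, 779 and 3433 in wild type. Phlda1, a gene induced by growth and stress signals, read 6212, 36798 and 9174 in knockout and 9111, 6779 and 26745 in wild type. The proto-oncogene Myc, which STAT3 and growth factors are known to induce, read 287, 1975 and 641 in knockout and 249.6, 403 and 1808 in wild type. That all 4 shared the same high array in each group, and that their groups overlapped, follows from how they were picked. Cish, induced by STAT5, was also highest in these arrays, at 1884, 6436 and 3879 in knockout and 3499, 1429.7 and 5174 in wild type. By smaller margins, Sos2, Il27ra, Osmr and the acute phase genes Fgb and Fgg were highest in these arrays too. For Fgb and Fgg the lower of the 2 arrays was 1.04 and 1.02 times the highest of the other 4. The serum amyloid gene Saa1, chosen likewise, was not, at 6341, 21228 and 12344 in knockout and 10069, 9061 and 6552 in wild type, high in knockout replicate 2 but low in wild-type replicate 3. Of all kept probe sets, 6.94% had these arrays as their 2 highest, by any margin.

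The immediate-early gene Fos, often induced with Myc, was higher in every knockout array than in any wild-type array, without passing, at 542, 642 and 516 in knockout and 295, 375 and 296 in wild type. Glycogen synthase Gys2, from the list of genes under C/EBP control and picked after its value was seen, read 14922, 17946 and 15087 in knockout and 20678, 22924 and 19617 in wild type, lower in every knockout array, at -0.40 ± 0.11, adjusted p = 0.181. The inhibitor Pias2, picked likewise, read 1331, 1331 and 1462 in knockout and 1699, 1686 and 1933 in wild type, at -0.36 ± 0.15, adjusted p = 0.48, but its other kept probe set, 1419454_x_at, was at -0.079 with overlapping groups. Neither passed over all probe sets.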
